A study of Mus musculus with 4 samples.

Results

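The genes examined encode 5 ligands of the EGF family (Hbegf, Areg, Ereg, Tgfa and Nrg1), the EGF receptor (Egfr) and the inhibitor it induces (Errfi1). They were chosen by earlier results of the same arrays, in which Hbegf was among the genes that responded most to TGF-b1, so every value given for them is a description and none is a test. Probe sets, the groups of probes that report 1 transcript each, were taken where the platform annotation gives 1 of these symbols and no other. This found 7 probe sets for 6 of the 7 genes, among 22180 genes named in this way, with 2 probe sets for Ereg. Areg is not analysed here. All 6 genes were among the 13308 genes kept for counts, the 60% with the highest mean over the arrays.

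EGF family ligands are made as membrane proteins and released by ADAM proteases. A ligand brings receptors of the ErbB family together in pairs, which switches on their kinase and the RAS-ERK cascade. ERK signalling induces early transcription factors and also its own brakes, among them Errfi1 (MIG6), which binds the kinase of the receptor and blocks it. In stromal cells such as these, ligands released by the cell can act on the cell itself or on its neighbours, epithelial tumour cells included.

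The cells were mouse mesenchymal stem cells derived from bone marrow. The 4 groups were Snail1-WT cells left untreated, Snail1-WT cells given TGF-b1 for 2 h, Snail1-KO cells left untreated and Snail1-KO cells given TGF-b1 for 2 h. Snail1, encoded by Snai1, is a zinc finger repressor of transcription, and TGF-b1 is a cytokine that signals through SMAD proteins. Each group had 1 array of total RNA, so no difference has a replicate check and no p-value is given. The sources used here do not say how Snail1 was removed, how much TGF-b1 was given or whether cultures were from different animals.

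All levels are log2 values from RMA, on which a step of 1 is 2-fold. In place of replicates, a yardstick SD for a difference between 2 arrays was taken from how far both responses to TGF-b1 disagreed among the 500 kept genes nearest in level. For the 7 probe sets it lay between 0.08 and 0.22, and between 0.12 and 0.31 for the difference of the responses, which holds 4 arrays. It contains true differences between the responses and leaves out whatever both arrays of a genotype share, so it is not a replicate error. Array medians lay between 4.58 and 4.63. Snai1 was checked first: untreated and treated Snail1-WT cells measured 6.69 and 7.63, and the Snail1-KO arrays 5.09 and 5.34, in the order the labels imply. Both Snail1-KO values lay above 4.51, the lowest mean kept, and differed by 0.25, against a yardstick SD of 0.18. They do not show a complete loss of the transcript. Of 9 measured mesenchymal stromal markers 8 were kept, against 0 of 5 mast cell, 3 of 4 endothelial, 3 of 5 epithelial and 3 of 8 haematopoietic markers. The kept endothelial and epithelial markers had means between 4.57 and 5.38, close above 4.51, the lowest mean kept. Among the stromal markers Thy1 was nearly as dim, with a mean of 5.46, and Nt5e, at 4.39, was not kept. The other kept stromal markers had means of 8.51 or more. Of the haematopoietic markers Cd34, which stromal cells can also carry, was bright, with a mean of 10.7, while the leukocyte gene Ptprc had a mean of 3.46.

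**Figure D1:**
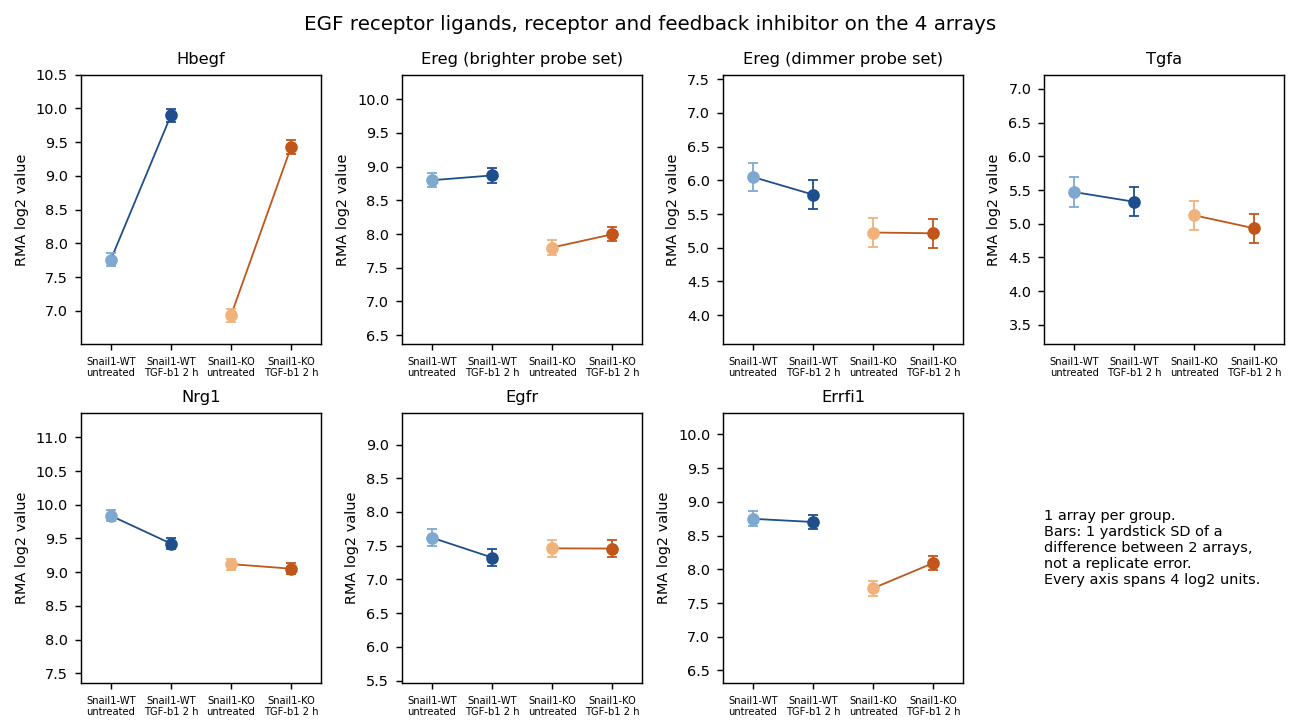
RMA log2 value (y axis) of each of the 7 probe sets on the 4 arrays (x axis), with lines joining untreated and treated cells of a genotype and bars of 1 yardstick SD, which is not a replicate error. Hbegf was higher after TGF-b1 in both genotypes, from 7.76 to 9.90 and from 6.93 to 9.43. Both arrays of Snail1-KO cells lay below both arrays of Snail1-WT cells for Ereg, Tgfa, Nrg1 and Errfi1. The share of kept genes in this order was not counted, so the order is only a description.

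Hbegf, the heparin-binding ligand of EGFR and ERBB4, was the member that stood apart after TGF-b1. It measured 7.76 in untreated and 9.90 in treated Snail1-WT cells, and 6.93 in untreated and 9.43 in treated Snail1-KO cells. Both treated arrays lay above both untreated arrays. The response was 4.41-fold (2.14) in the Snail1-WT pair and 5.65-fold (2.50) in the Snail1-KO pair, against a yardstick SD of 0.10. By size it was the 6th largest increase among kept genes in Snail1-WT cells and the 9th largest in Snail1-KO cells. In Snail1-KO cells Hbegf was lower than in Snail1-WT cells by both comparisons, 1.77-fold without TGF-b1 (difference -0.83) and 1.38-fold with it (-0.47). The response was thus larger by 0.36 in Snail1-KO cells, from a lower start to a lower end. In RNA from whole cultures, fewer cells of a type and less RNA per cell cannot be told apart.

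Ereg encodes epiregulin, a ligand of EGFR and ERBB4 that is best known from the ovary and from inflamed tissue. Its brighter probe set measured 8.80 without and 8.87 with TGF-b1 in Snail1-WT cells, and 7.80 and 7.996 in Snail1-KO cells. Both Snail1-KO arrays lay below both Snail1-WT arrays, an order whose share among kept genes was not counted. Snail1-KO cells differed from Snail1-WT cells by -0.999 without and -0.87 with TGF-b1, against a yardstick SD of 0.11. The untreated value is 1.998-fold, just under the 2-fold mark. The responses to TGF-b1 were small, at 0.07 and 0.20. The dimmer probe set measured 6.05 and 5.79 in Snail1-WT cells and 5.23 and 5.21 in Snail1-KO cells. It gave genotype differences of -0.82 and -0.57 in the same direction, with a yardstick SD of 0.21. Its response in Snail1-WT cells, -0.26, was opposite in sign to that of the brighter probe set.

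Nrg1 encodes neuregulin 1, which binds ERBB3 and ERBB4 rather than EGFR. It measured 9.84 without and 9.42 with TGF-b1 in Snail1-WT cells, and 9.12 and 9.05 in Snail1-KO cells. Untreated Snail1-WT cells were highest, and both Snail1-KO arrays were close together below. The genotype difference was -0.72 without and -0.37 with TGF-b1, against a yardstick SD of 0.08. The response to TGF-b1 was -0.41 with functional Snail1, beyond the yardstick, and -0.07 without, within it. The gene has many transcript forms from separate start sites, and the sources do not say which of them the probe set reports.

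Tgfa encodes transforming growth factor alpha, an EGFR ligand that despite its name is unrelated to TGF-b1. Its probe set was dim, at 5.47 and 5.33 in Snail1-WT cells without and with TGF-b1 and 5.13 and 4.93 in Snail1-KO cells. The genotype differences of -0.35 and -0.39 were each larger than the yardstick SD of 0.22 but under 2 of them. The responses of -0.14 and -0.19 were smaller than that SD. A value this near the lowest mean kept may understate a difference.

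Egfr encodes the receptor. It varied least of the members, over a range of 0.29. It measured 7.62 and 7.32 in Snail1-WT cells without and with TGF-b1, and 7.46 in Snail1-KO cells under both conditions. The genotype difference was -0.16 without and 0.13 with TGF-b1, both slightly over the yardstick SD of 0.13, and the order of the genotypes turned. The response was -0.29 in the Snail1-WT pair and -0.003 in the Snail1-KO pair.

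Errfi1 encodes the feedback inhibitor of the receptor. It measured 8.75 without and 8.70 with TGF-b1 in Snail1-WT cells, and 7.72 and 8.09 in Snail1-KO cells. All values of Snail1-KO cells lay below those of Snail1-WT cells, an order whose share among kept genes was not counted. The genotype difference was -1.03, or 2.04-fold, without TGF-b1 and -0.61, or 1.52-fold, with it, against a yardstick SD of 0.11. The response of the Snail1-WT pair was -0.05, within the yardstick, and that of the Snail1-KO pair was 0.37. The difference of the responses, 0.42, was the largest in size of the 6 genes.

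Promoter windows from RefSeq, 250 bases before to 50 after a start site in build GRCm38.p6, were read for 4 of the 7 listed genes. The Hbegf promoter is not reported here. The windows of Errfi1 and Tgfa are shown 5′ to 3′ on the plus strand. Errfi1 had the largest difference between untreated genotypes. Tgfa is the measured gene, among those with a window read, whose window holds a Snail-type E-box. Capitals mark matches on either strand to 4 motifs searched: CAGAC (a SMAD box), CAGGTG (an E-box of the kind Snail factors bind), TGANTCA (an AP-1 site) and GGAATG (a TEAD site). No matches overlap in these windows. Errfi1 has 2 windows, at chr4:150853546-150853845 and chr4:150854820-150855119, and the Tgfa window is chr6:86194972-86195271.
Errfi1, first start site: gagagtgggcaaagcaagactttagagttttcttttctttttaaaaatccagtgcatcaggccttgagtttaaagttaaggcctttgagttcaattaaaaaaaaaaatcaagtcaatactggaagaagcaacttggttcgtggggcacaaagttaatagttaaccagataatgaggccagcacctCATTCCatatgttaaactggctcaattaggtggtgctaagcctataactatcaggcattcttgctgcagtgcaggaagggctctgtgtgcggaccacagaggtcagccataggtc
Errfi1, second start site: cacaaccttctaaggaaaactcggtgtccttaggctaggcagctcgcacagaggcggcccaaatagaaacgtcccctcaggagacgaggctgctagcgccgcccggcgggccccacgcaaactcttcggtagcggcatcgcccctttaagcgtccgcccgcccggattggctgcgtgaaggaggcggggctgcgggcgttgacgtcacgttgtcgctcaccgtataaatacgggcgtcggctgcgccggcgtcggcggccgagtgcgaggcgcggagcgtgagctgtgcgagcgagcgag
Tgfa: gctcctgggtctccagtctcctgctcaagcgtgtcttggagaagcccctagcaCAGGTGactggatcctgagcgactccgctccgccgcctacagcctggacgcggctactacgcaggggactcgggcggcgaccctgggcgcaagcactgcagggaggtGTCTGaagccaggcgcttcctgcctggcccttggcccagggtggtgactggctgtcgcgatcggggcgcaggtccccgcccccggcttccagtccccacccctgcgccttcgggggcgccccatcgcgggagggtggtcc
The first Errfi1 window holds the TEAD letters once, beginning at base 186, and the second holds none of the 4 motifs. The Tgfa window holds the E-box at base 54 and the SMAD box, as its complement, at base 161. Of the windows not printed, that of Egfr holds the SMAD box at base 282 and that of Areg the E-box at base 231. Among all 32851 windows of this length in the table, 49.6% hold the SMAD box, 20.2% the E-box, 7.81% the AP-1 site and 14.7% the TEAD site. A match is a description of the letters, and the missing matches say only that these letters are not in these windows.

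**Figure D2:**
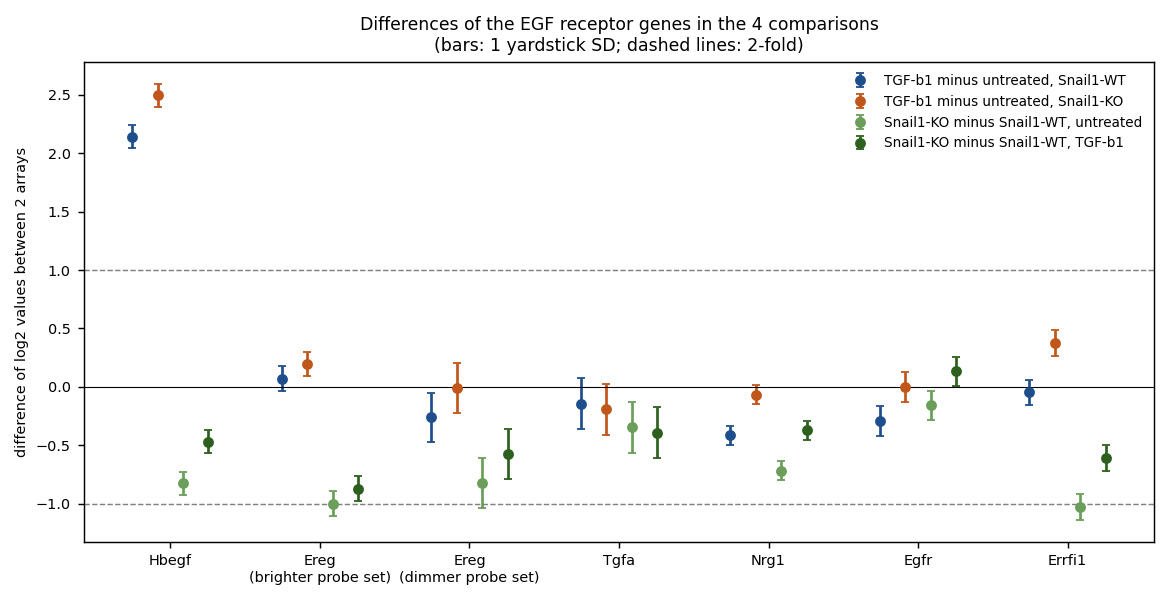
Difference of log2 values between 2 arrays (y axis) for each probe set (x axis) in the 4 comparisons, with bars of 1 yardstick SD and dashed lines at 2-fold. The responses of Hbegf to TGF-b1, at 2.14 and 2.50, stand above all other points, and the differences between genotypes lie mostly between 0 and -1.03.

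Hbegf was the one member with a large response, while Ereg, Nrg1, Tgfa and Errfi1 were further apart between untreated genotypes than between treated and untreated cells of either genotype. At least 2-fold apart after TGF-b1 was 1 of 6 genes in Snail1-WT cells, where 0.984% of kept genes were, and 1 of 6 in Snail1-KO cells, where 1.31% were. In each case this gene was Hbegf. Between untreated genotypes 1 of 6 was 2-fold apart (Errfi1), beside 1.57% of kept genes, and between treated genotypes 0 of 6, beside 1.7%. At 1.5-fold, 4 of 6 were lower in untreated Snail1-KO cells (Hbegf, Ereg, Nrg1 and Errfi1), beside 3.13% of kept genes, and 2 of 6 in treated cells (Ereg and Errfi1), beside 3%. The median of the 6 genotype differences was -0.77 without and -0.43 with TGF-b1, while the medians of kept genes were -0.0003 and -0.002. The mesenchymal stromal markers were shifted the same way by less, with medians of -0.27 and -0.18, and 6 of 9 lay lower in untreated and 5 of 9 in treated Snail1-KO cells. The part of that shift in the members' differences was not tested. None of the 6 differed 2-fold between the responses, as 0.338% of kept genes did. The members were chosen with these comparisons known, so the counts describe them and carry no weight against the percentages.

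The sizes of the genotype differences were smaller with TGF-b1 than without for Hbegf, Ereg, Nrg1, Egfr and Errfi1, and larger for Tgfa. Correspondingly the response to TGF-b1 was higher in Snail1-KO than in Snail1-WT cells for 5 of 6 genes, with differences of the responses from 0.13 for Ereg to 0.42 for Errfi1, and -0.05 for Tgfa. Over all kept genes 53.6% were higher in this sense. Those for Hbegf, Nrg1 and Errfi1 were over 2 SDs of such a difference, and those for Ereg, Tgfa and Egfr were under 2, while 6.67% of kept genes were over 2 in either direction. The 4 values of a gene enter all of these comparisons, so they are not independent of each other.

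Other genes of the pathway were read from lists. The ErbB ligands outside the set, from Egf to Nrg4, had no gene at least 2-fold apart in any of the 4 comparisons, and 2 of 6 were kept, so most lie near background. Of the 4 ErbB receptors 2 were kept, Egfr and Erbb2, the co-receptor without a ligand of its own. Erbb2 measured 7.05 and 6.83 in Snail1-WT cells and 6.50 and 6.61 in Snail1-KO cells, untreated first, and its genotype difference was -0.55 and -0.22. ERBB3 and ERBB4, the receptors neuregulins bind, had probe sets with means of 4.15 and 3.72, under the lowest mean kept.

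Among 12 genes of ligand processing and shedding, 1 was 2-fold higher and 1 was 2-fold lower in Snail1-KO cells in each genotype comparison. Of kept genes, 1.57% without and 1.7% with TGF-b1 were 2-fold apart in either direction. The lower one was Adam12, a metalloproteinase that can release Hbegf, at 7.41 and 8.15 in Snail1-WT cells against 5.58 and 6.25 in Snail1-KO cells, or differences of -1.83 and -1.90. The higher one was Cd9, a tetraspanin that binds the membrane form of Hbegf, at 8.26 and 7.92 against 9.58 and 9.28, or differences of 1.32 and 1.36. Timp3, an inhibitor of ADAM17, was the 1 gene of the list that was 2-fold higher after TGF-b1 in Snail1-KO cells, by 1.07. Its response in Snail1-WT cells was 0.75. Of kept genes, 1.31% were 2-fold apart after TGF-b1 in Snail1-KO cells, in either direction. The median difference of the list was -0.01 without and 0.13 with TGF-b1 between genotypes, close to 0.

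Of 14 negative regulators of the receptor, Errfi1 among them, 1 was 2-fold higher after TGF-b1 in each genotype. It was Lrig3, a membrane protein related to the ErbB inhibitor Lrig1, which went from 8.54 to 9.54 in Snail1-WT cells and from 8.26 to 9.47 in Snail1-KO cells. Errfi1 was the 1 gene of this list that was 2-fold lower in untreated Snail1-KO cells. List medians were 0.06 and 0.08 for the responses and -0.22 and -0.18 for the genotype differences. Of 15 adaptors and RAS-ERK cascade genes, 10 had a probe set with 1 symbol. None of the 10 was even 1.5-fold apart in any comparison.

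ERK targets and feedback genes had larger differences. Of 23 measured, 4 were at least 2-fold higher and 1 lower after TGF-b1 in Snail1-WT cells, and 5 higher and 1 lower in Snail1-KO cells. Of kept genes, 0.984% and 1.31% were 2-fold apart in either direction. Junb, counted among the higher genes of both genotypes, also belongs to the TGF-b early targets below. The medians of the ERK list were 0.35 and 0.53, beside medians of kept genes of -0.03 and -0.02. The zinc finger gene Egr2 was higher by 2.64 and 2.85 and the survival gene Ier3 by 1.34 and 1.52, while Dusp1, which inactivates MAP kinases, differed by -1.51 and -1.26. Between genotypes 2 of 23 were 2-fold lower in Snail1-KO cells in each comparison and none was 2-fold higher. Of kept genes, 1.57% without and 1.7% with TGF-b1 were 2-fold apart in either direction. Dusp4 was lower in both comparisons, while Egr1 passed the mark only without TGF-b1, at -1.71 against -0.55 with it. Dusp5 passed it only with TGF-b1, and only just, at -1.002 against -0.67 without. At 1.5-fold, 9 were lower without and 5 with TGF-b1, beside 3.13% and 3% of kept genes, with list medians of -0.48 and -0.42. Dusp4, a nuclear phosphatase of ERK, measured 7.23 and 8.23 in Snail1-WT cells and 5.80 and 6.96 in Snail1-KO cells, so it was lower by genotype and higher by treatment. Egr1 measured 8.75 and 8.60 in Snail1-WT cells and 7.03 and 8.06 in Snail1-KO cells, so its response was -0.14 in the first and 1.03 in the second genotype. These genes also answer to signals other than the EGF receptor, and no measurement of receptor activity was made here.

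**Figure D3:**
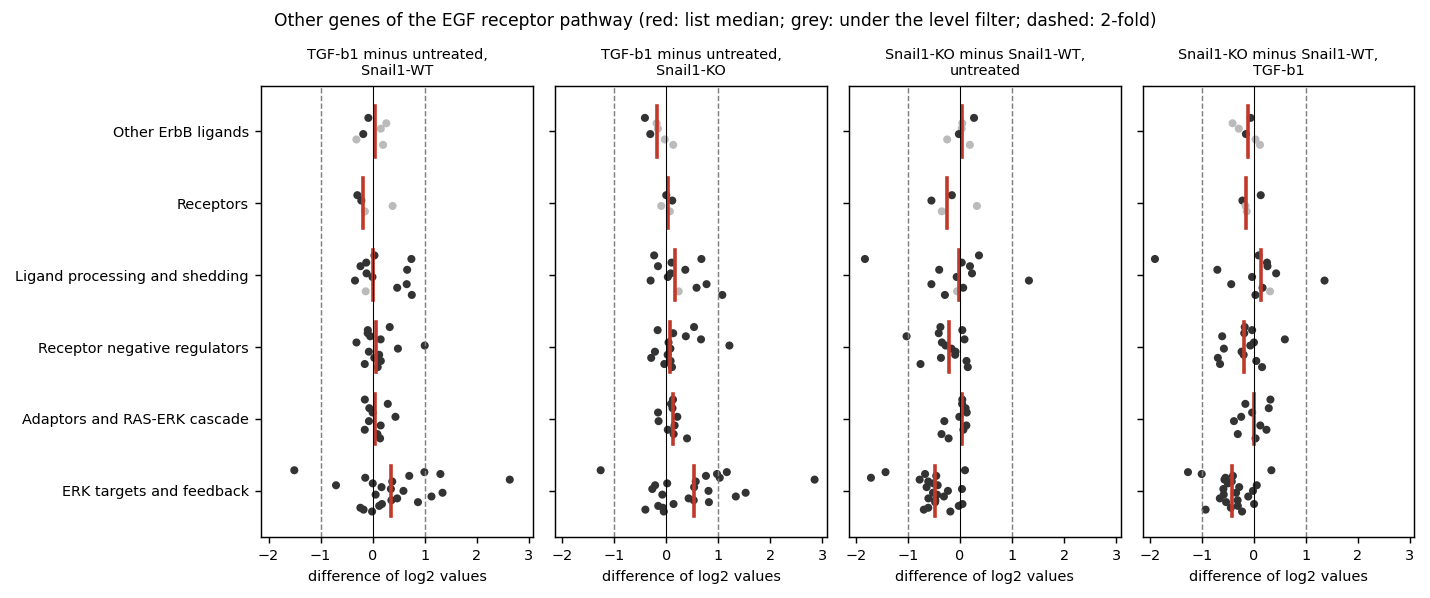
Difference of log2 values (x axis) of each gene in 6 pathway lists (rows) for the 4 comparisons (panels), with list medians in red, genes under the level filter in grey and dashed lines at 2-fold. ERK targets and feedback genes are spread most after TGF-b1, with list medians of 0.35 and 0.53, and their medians between genotypes are -0.48 and -0.42.

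The TGF-b early targets show the size of the general response beside that of Hbegf. Of 7 measured, 5 were at least 2-fold higher in each genotype, with medians of 1.51 and 1.80. Ccn2 was higher by 2.84 and 3.82, Skil by 2.62 and 3.31, Pmepa1 by 2.51 and 3.06, Smad7 by 1.51 and 1.80 and Junb by 1.13 and 1.33. Hbegf, at 2.14 and 2.50, lay within this range in both genotypes.

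The genes closest in pattern to the members that spanned at least 2-fold over the 4 arrays were found by the Euclidean distance between log2 profiles centred on their own mean. With 4 arrays many genes share a pattern, so this is a description. Nearest to Hbegf were Tnfrsf11b, which encodes the decoy receptor osteoprotegerin (distance 0.24), the cytokine gene Il6 (0.35) and the hyaluronan synthase gene Has2 (0.42). Tnfrsf11b went from 5.76 to 7.57 in Snail1-WT cells and from 4.82 to 7.33 in Snail1-KO cells, with the same order of the 4 arrays as Hbegf. Nearest to Ereg were the chemokine gene Cxcl14 (0.06), Ddah1, which breaks down an inhibitor of nitric oxide synthase (0.08), and the glypican gene Gpc6 (0.09). Cxcl14 measured 6.48 and 6.58 in Snail1-WT cells and 5.55 and 5.66 in Snail1-KO cells. Nearest to Errfi1 were the channel gene Panx1 (0.09), the growth factor gene Igf1 (0.11) and Map3k7cl (0.11). Panx1 measured 6.87 and 6.73 in Snail1-WT cells and 5.73 and 6.10 in Snail1-KO cells.

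**Figure D4:**
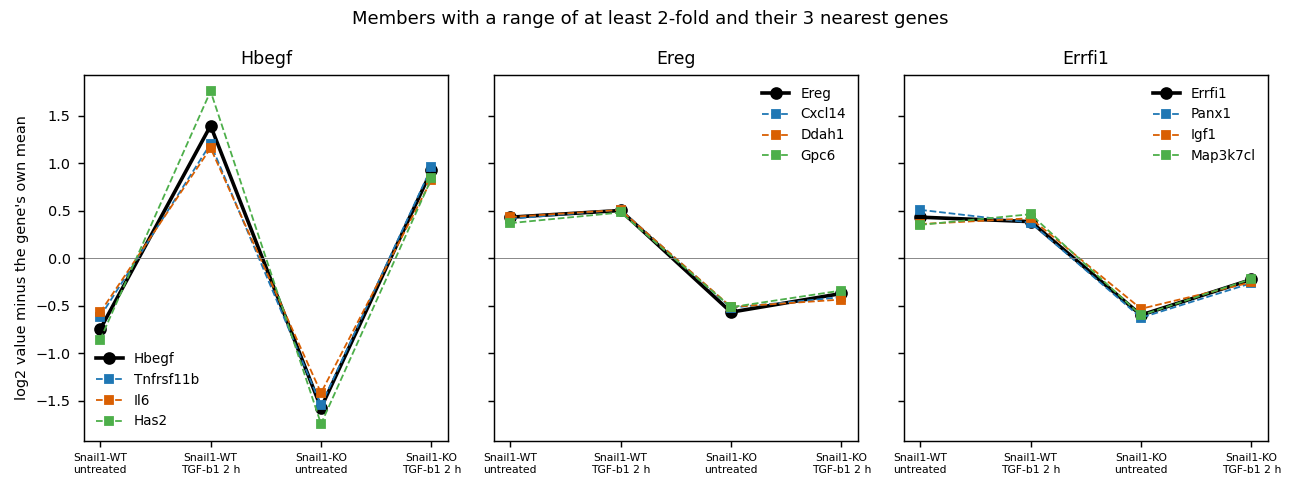
RMA log2 value minus the gene's own mean over the 4 arrays (y axis) by array (x axis) for Hbegf, Ereg and Errfi1, each with its 3 nearest genes as dashed lines. The profiles nearest to Hbegf follow the treatment in both genotypes, and those nearest to Ereg and Errfi1 separate the genotypes.

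Markers of cell types were summed on each array. The log2 of the summed linear values of the 9 mesenchymal stromal markers lay between 13.3 and 13.5 over the 4 arrays, a sum in which Col1a1, with a mean of 12.1, weighs most. The same sum was between 6.55 and 6.67 for 4 endothelial, 6.95 and 7.09 for 5 epithelial and 5.54 and 5.91 for 5 mast cell markers. For 8 haematopoietic markers it was 10.6 and 10.4 in Snail1-WT cells and 11.1 and 10.98 in Snail1-KO cells, untreated first. That sum is nearly all Cd34, which differed between genotypes by 0.54 and 0.64. Of the 8 markers, 6 were higher in untreated Snail1-KO cells (list median 0.33) and 6 were lower in treated ones (median -0.198), most of them at levels near background. RMA values have no true zero, so no marker can be called absent.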

How the data were processed

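RNA was measured on 4 arrays, 1 per group, and groups were taken from sample titles. The authors deposited log2 values, and the submitters' processing notes name RMA and R 3.1.1. RMA subtracts background, gives the arrays a common distribution and summarises probes, so a shift shared by most genes would be lost. The number of arrays limits the precision. Genome build and annotation were not given in the sources used here. Of 41345 probe sets, 23521 had 1 symbol in the platform annotation, 1814 several and 16010 none here. All 6 members matched RefSeq GRCm38.p6 by Entrez identifier.

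A gene was its probe set with the highest mean (1082 genes had several), and the 60% of genes with the highest mean were kept. Differences were counted at 2-fold and 1.5-fold. The yardstick SD is 1.4826 times the median absolute deviation of the genotypes' disagreement in response over the square root of 2, among the 500 kept genes nearest in mean. Members, lists and rules were chosen with earlier results of these data known. Named were the members, Snai1, up to 5 genes per list that were 2-fold apart in any comparison, the 3 nearest genes in pattern of each member with a range of at least 1, and markers needed to read their lists. Erbb2, Erbb3, Erbb4 and Dusp5 were named after their values were seen. Alternatives were the mean of probe sets, median centring, cyclic loess (limma 3.58.1, R 4.3.3), other level filters and 1.5-fold. Other steps ran in Python 3.11.15 (pandas 2.3.3, numpy 2.4.6, figures by matplotlib 3.10.9).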

Additional observations from a re-analysis of the deposited data

Results flagged for a closer look

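The response of Errfi1 to TGF-b1 had opposite signs in the genotypes, at -0.05 with and 0.37 without functional Snail1, a difference of 0.42 that was not tested. The first of these is smaller than the yardstick SD of 0.11.

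The genotype difference of Egfr had opposite signs, at -0.16 without and 0.13 with TGF-b1, a difference of 0.29 that was not tested. Both lie close to the yardstick SD of 0.13.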

How the results depend on the processing

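Under median centring and cyclic loess, all 30 differences of the 6 members (5 comparisons each) moved by less than their yardstick SD, by between -0.04 and 0.05. The sign changed for 1 under centring, the response of Egfr in Snail1-KO cells, which is -0.003 as deposited. With the mean of probe sets, which alters Ereg alone, 28 stayed within the SD, while the Ereg response in Snail1-WT cells became -0.10, with the opposite sign, and its genotype difference with TGF-b1 became -0.72. At 1.5-fold the members apart numbered 4 without and 2 with TGF-b1 between genotypes, and the kept genes apart numbered 581 and 684 for the responses of Snail1-WT and Snail1-KO cells, 951 and 1083 for the genotypes without and with TGF-b1, and 476 for the difference of the responses. That last count, 45 at 2-fold, was 197 with no filter and 4 with the 40% of genes highest in mean, so it depends on dim genes.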
